A study of Rattus norvegicus with 4 samples.

Results

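Pre-mRNA splicing factors and heterogeneous nuclear ribonucleoproteins (hnRNPs) were followed in cells of the rat tracheal epithelial line RTEC11 at 39 °C and at 33 °C. The genes were chosen by symbol alone: SR proteins (Srsf), hnRNPs (Hnrnp), proteins of the small nuclear ribonucleoproteins (Snrp and Snrnp), SF3 subunits (Sf3a and Sf3b), Prpf factors, U2af subunits, Lsm proteins and the kinases Clk1 to Clk4. This gave 69 genes of the 10411 genes with a probe set of their own, and 91 of the 15866 probe sets that are not controls. A further 9 probe sets that list such a symbol beside others were left out. The line came from transgenic rats whose transgene encodes a large T antigen of simian virus 40 that is sensitive to temperature. This viral oncoprotein inactivates p53 and the retinoblastoma family. The nonpermissive group, in which the antigen loses its activity, was kept at 39 °C for 3 days (2 arrays), and the permissive group at 33 °C for 3 days (2 arrays). Temperature changed along with antigen activity, so the effects of the 2 cannot be told apart. All arrays come from 1 immortalised line. Whether the replicates of a group were separate cultures is not stated in the labels, and p-values therefore cover only the spread among these arrays, which may be technical.

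Splicing removes introns in steps. The U1 and U2 particles, built on rings of Sm proteins, recognise the start of the intron and its branch point, U2AF and the SF3 complexes help to fix U2 there, and a complex of U4, U6 and U5 then joins and is rearranged into the active spliceosome. SR proteins bind exons and usually favour their inclusion, while many hnRNPs bind the same transcripts and often oppose them. The kinases of the SRPK and CLK families phosphorylate SR proteins, and in mammalian cells CLK activity is known to be sensitive to body temperature. The arrays measure mRNA, not protein or kinase activity.

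Values are log2 intensities with 16 added to each intensity before the logarithm, after quantile normalization of the 4 arrays, and a change is the mean at 39 °C minus the mean at 33 °C. A probe set was called when its limma p-value, adjusted by Benjamini-Hochberg over all 8178 probe sets tested, was under 0.05. Intensities of different probe sets cannot be set against each other. The correlation between replicate arrays was 0.981 at 39 °C and 0.978 at 33 °C. Poly-A spike-in controls were brighter at 39 °C, with mean log2 intensities of 6.99 and 7.09, against 6.63 and 6.69 at 33 °C. All 9 epithelial markers examined were above the limit for dim probe sets, against 1 of 7 fibroblast, 0 of 3 endothelial, 2 of 6 immune and 2 of 5 smooth muscle markers. The summed intensity of the epithelial markers was 86647 to 88117 at 39 °C and 74033 to 77427 at 33 °C, and that of the fibroblast markers was 330 to 377 at 39 °C and 232 to 249 at 33 °C. The endothelial markers summed to 29.5 to 105 at 39 °C and 14.3 to 40.1 at 33 °C, the immune markers to 838 to 973 at 39 °C and 986 to 1038 at 33 °C, and the smooth muscle markers to 501 to 594 at 39 °C and 615 to 799 at 33 °C. Single markers moved further than these sums and in opposite directions. Tagln, whose mean was under the dim limit so that it was not tested, read 4.51 and 4.34 at 39 °C, against 8.14 and 8.38 at 33 °C, and Myh11, also untested, read 7.09 and 6.96 at 39 °C, against 5.01 and 5.36 at 33 °C. The fibroblast marker Col3a1 was called higher (1.61 ± 0.26, limma adjusted p = 0.000377). The part of other cell types in the results below was not tested.

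Of the 86 splicing probe sets above the dim limit, which stand for 68 genes, 31 were lower at 39 °C, 10 were higher and 45 were not called. These were 36.0% lower and 11.6% higher, against 25.5% and 22.4% of all tested probe sets, of which 48.0% were called in either direction. The median log2 change was -0.15 over the splicing probe sets and -0.04 over all tested. Changes were mostly small, with 2 splicing probe sets called at least 2-fold lower and 1 called at least 2-fold higher, where 4.92% and 5.98% of all tested probe sets were. For 61 of the 86, both arrays at 39 °C lay on the same side of both at 33 °C, as they did for 74.4% of all tested probe sets. The 5 dim probe sets were 2 of Srsf10 and 1 each of Snrnp40, Prpf18 and Snrpn, and Snrpn was the 1 gene with no tested probe set. With each gene represented by its brightest tested probe set, 26 of 68 genes were lower and 8 higher, against 26.0% and 23.0% of all 7017 tested genes. Fewer cells making an RNA and less of it per cell cannot be told apart in such bulk samples.

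The balance depended on how the arrays were scaled. With each array scaled to its spike-in controls, 56 of the 86 were lower and 2 higher, while 47.0% of all tested probe sets were lower and 11.2% higher. With each array centred on its median, 42 were lower and 6 higher, against 32.3% and 18.9% of all. On the deposited scale the counts were 30 and 10, against 23.0% and 25.7%. The median log2 change was -0.15 for the splicing probe sets and -0.04 for all with quantile normalization, -0.12 and 0.03 on the deposited scale, -0.27 and -0.12 with median centring, and -0.50 and -0.35 with spike-in scaling.

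**Figure D1:**
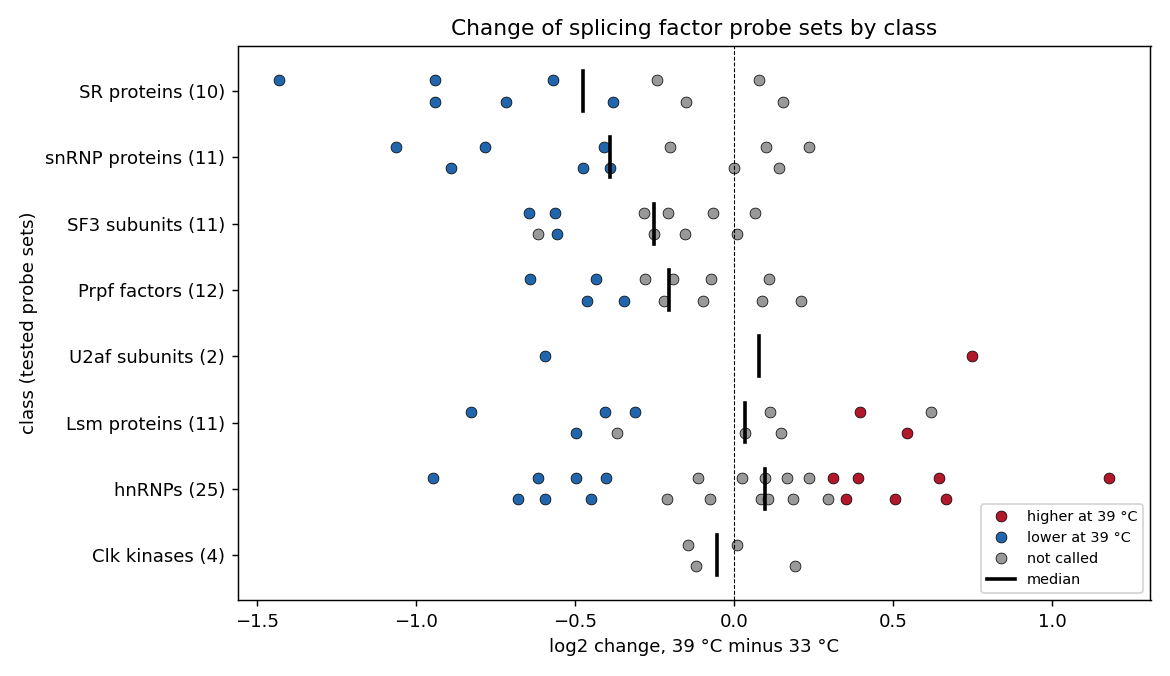
Log2 change at 39 °C minus 33 °C (x axis) of each of the 86 tested probe sets, by class (y axis, with the number tested). Blue points were called lower, red points higher and grey points were not called, and the black bar is the class median. No SR, snRNP, SF3 or Prpf probe set was called higher, and the hnRNPs lie on both sides of 0.

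Of 10 tested probe sets of SR proteins 6 fell, 0 rose and 4 were not called, with a median log2 change of -0.47. The share lower was 60%, against 25.5% of all tested probe sets. The 10 probe sets stand for 7 genes, of which 4 fell: Srsf1, Srsf2, Srsf5 and Srsf6. The count was 6 with any 1 array left out, and 7 on the deposited scale, with median centring and with spike-in scaling.

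Srsf5 is an SR protein that binds exonic enhancers. It read 9.80 and 9.95 at 39 °C, against 10.66 and 10.97 at 33 °C. Both arrays at 39 °C lay below both at 33 °C, and the log2 change was -0.94 ± 0.12 (SE, limma adjusted p = 7.60e-05), or 1.92-fold lower. Srsf2, also called SC35 and long used as a marker of nuclear speckles, read 11.91 and 11.91 at 39 °C, against 12.69 and 12.57 at 33 °C, by its brightest probe set (-0.72 ± 0.09, limma adjusted p = 3.61e-05). Its other probe set read 9.93 and 10.12 at 39 °C, against 11.02 and 10.91 at 33 °C (-0.94 ± 0.11, limma adjusted p = 3.01e-05). Neither probe set had an overlap between the temperatures.

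Srsf6 fell by both of its probe sets, to different extents. The brightest read 10.77 and 10.87 at 39 °C, against 11.30 and 11.47 at 33 °C (log2 change -0.57 ± 0.10, SE). The second read 7.60 and 7.72 at 39 °C, against 9.07 and 9.11 at 33 °C (-1.43 ± 0.15), which was 2.69-fold lower. That was the largest fall among the splicing probe sets. Srsf1, the SR protein first known as ASF/SF2, read 11.12 and 11.21 at 39 °C, against 11.51 and 11.58 at 33 °C by its brightest probe set (-0.38 ± 0.09, limma adjusted p = 0.00492). Its second probe set was not called. Srsf9 (-0.24, adjusted p = 0.0574), Srsf10 (-0.15) and Srsf11 (0.08) were not called, and the Srsf10 probe set spread from 7.51 to 8.31 between the arrays at 39 °C.

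Among proteins of the small nuclear ribonucleoproteins, 6 of 11 tested probe sets fell, 0 rose and 5 were not called (median -0.39), a share of 54.5% lower against 25.5% of all tested probe sets. Each of the 11 stands for a different gene. All the falls except that of Snrpd3 were in proteins specific to 1 particle. The number lower was 10 with spike-in scaling and 4 to 7 under the other alternatives.

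Snrpa encodes a U1-specific protein that binds a stem-loop of U1 RNA. It read 9.36 and 9.40 at 39 °C, against 10.50 and 10.39 at 33 °C (-1.06 ± 0.11, limma adjusted p = 1.24e-05), a 2.09-fold fall. Its partner in U1, Snrnp70, read 10.94 and 10.86 at 39 °C, against 11.21 and 10.99 at 33 °C and was not called (-0.20). The 2 arrays of each temperature did not overlap for either gene.

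Both U2-specific proteins in this class fell, which leaves out the SF3 subunits described below. Snrpa1 read 10.34 and 10.20 at 39 °C, against 11.04 and 11.07 at 33 °C (-0.78 ± 0.10, limma adjusted p = 6.42e-05). Snrpb2, which binds U2 RNA together with Snrpa1, read 10.27 and 10.04 at 39 °C, against 10.57 and 10.51 at 33 °C (-0.39 ± 0.11). Snrpb2 was not called without nonpermissive replicate 2 (-0.27) or without an intensity trend. Of the U5 proteins, Snrnp200, the helicase that unwinds U4 from U6, read 9.95 and 9.87 at 39 °C, against 10.88 and 10.72 at 33 °C (-0.89 ± 0.11, limma adjusted p = 3.90e-05), 1.85-fold lower. Snrnp40, a WD-repeat protein of U5, had a change of -0.48 ± 0.15, and was not called without replicate 1 of either temperature, without a dim limit or without an intensity trend.

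Sm proteins are shared by all the particles except U6. Of the 4 tested, Snrpd3 fell (-0.41 ± 0.10, limma adjusted p = 0.00442), with 11.25 and 11.16 at 39 °C, against 11.70 and 11.53 at 33 °C. Snrpb (0.14), Snrpd2 (0.00) and Snrpe (0.10) were not called, each with an SE of 0.09. With spike-in scaling these 3 were called lower (-0.35, -0.47 and -0.38), when the median of all probe sets was -0.35. Snrnp27, a protein of the U4, U6 and U5 complex, was not called (0.24).

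The SF3 complexes belong to the mature U2 particle and hold the branch point. Of 11 tested probe sets 3 fell, 0 rose and 8 were not called (median -0.25), a share of 27.3% lower against 25.5% of all tested probe sets. Sf3b5 read 11.14 and 11.15 at 39 °C, against 11.78 and 11.79 at 33 °C (-0.64 ± 0.09, limma adjusted p = 9.80e-05). Sf3b6, known as p14, which contacts the branch point adenosine, read 11.26 and 11.33 at 39 °C, against 11.87 and 11.84 at 33 °C (-0.56 ± 0.09). Sf3a3 read 9.58 and 9.79 at 39 °C, against 10.29 and 10.19 at 33 °C (-0.56 ± 0.12). These 3 genes showed no overlap between temperatures.

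The large scaffold subunit Sf3b1 was not called by either of its probe sets (-0.07 and -0.28), nor were Sf3b2 (0.01 and -0.25), Sf3b3 (0.07) and Sf3b4 (-0.21). Sf3a1 was not called either (-0.15 and -0.62). Its dimmer probe set, with the larger change, was just over the threshold (limma adjusted p = 0.05002) and was called lower with median centring. Of the 8 SF3 probe sets that were not called, 6 had a change below 0. The number of SF3 probe sets called lower was 5 without permissive replicate 2, 7 with median centring and 11 with spike-in scaling.

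U2af2 and U2af1l4 went opposite ways. The usual small subunit, U2af1, was not among the genes with a probe set of their own. U2af2, the large subunit that binds the polypyrimidine tract, read 10.98 and 10.99 at 39 °C, against 11.59 and 11.56 at 33 °C (-0.59 ± 0.09, limma adjusted p = 0.000215). U2af1l4, a relative of the small subunit, read 8.92 and 8.95 at 39 °C, against 8.13 and 8.23 at 33 °C (0.75 ± 0.14, limma adjusted p = 0.000921), 1.68-fold higher. Each was called in the same direction under all 14 alternatives run.

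Of the Prpf factors, proteins named for yeast pre-mRNA processing mutants, 4 of 12 tested probe sets fell and 0 rose (median -0.20). The share lower was 33.3%, against 25.5% of all tested probe sets, and on the deposited scale it was 8.33%, against 23.0%. Prpf4b, a kinase of the tri-particle complex, read 8.66 and 8.76 at 39 °C, against 9.38 and 9.32 at 33 °C (-0.64 ± 0.13, limma adjusted p = 0.00138). It was the 1 Prpf call that held under every alternative. Prpf38a read 8.44 and 8.55 at 39 °C, against 9.10 and 8.81 at 33 °C (-0.46 ± 0.15). Prpf3, which binds the U4 and U6 pair, read 9.49 and 9.32 at 39 °C, against 9.90 and 9.60 at 33 °C by its brightest probe set (-0.34 ± 0.13, limma adjusted p = 0.0487).

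The Prpf count was 1 on the deposited scale, with no dim limit, without permissive replicate 1 and without nonpermissive replicate 1, 2 without nonpermissive replicate 2, and 6 with spike-in scaling. Prpf8, the large U5 protein at the catalytic centre, read 10.28 and 10.30 at 39 °C, against 10.51 and 10.50 at 33 °C, and was not called (-0.22, adjusted p = 0.0892) although its arrays did not overlap. Prpf6, Prpf18, Prpf19, Prpf38b, Prpf39 and Prpf40b were not called either, with changes from -0.19 to 0.21.

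Many Lsm proteins form rings like those of the Sm proteins, and Lsm2 to Lsm8 make up the ring on U6 RNA. Of 11 tested probe sets 4 fell and 2 rose (median 0.04). These shares of only 11 probe sets were 36.4% lower and 18.2% higher, against 25.5% and 22.4% of all tested probe sets. Within the U6 ring, 3 of 6 tested genes fell and 1 rose. Lsm7 read 9.81 and 9.78 at 39 °C, against 10.67 and 10.56 at 33 °C (-0.83 ± 0.10, limma adjusted p = 5.91e-05), 1.77-fold lower. Lsm4 read 10.66 and 10.67 at 39 °C, against 11.02 and 11.12 at 33 °C (-0.40 ± 0.10), and Lsm3 had a change of -0.31 ± 0.08, not called without nonpermissive replicate 2 or without an intensity trend.

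Lsm2 went the other way, with 11.19 and 11.13 at 39 °C, against 10.74 and 10.50 at 33 °C (0.54 ± 0.11, limma adjusted p = 0.00136). Its call was lost with spike-in scaling (0.13). Lsm5 (0.04) and Lsm8 (0.11) were not called. The members of the U6 ring thus ranged from -0.83 to 0.54.

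Outside the U6 ring, Lsm12 read 8.78 and 8.77 at 39 °C, against 9.31 and 9.22 at 33 °C (-0.50 ± 0.13, limma adjusted p = 0.00661). Lsm10, which with Lsm11 replaces Sm proteins in the U7 particle of histone mRNA processing, read 8.62 and 8.80 at 39 °C, against 8.25 and 8.38 at 33 °C (0.40 ± 0.15, limma adjusted p = 0.0420). Lsm10 was not called under 6 alternatives: leaving out permissive replicate 1 or an array of the nonpermissive group, median centring, spike-in scaling, and no dim limit. Lsm11 had a larger change (0.62 ± 0.27) that was not called (adjusted p = 0.0758), and Lsm14a, of cytoplasmic mRNA granules, was at 0.15.

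Of 25 tested hnRNP probe sets, which stand for 16 genes, 7 fell, 7 rose and 11 were not called (median 0.10). The 28% lower and 28% higher were close to the 25.5% and 22.4% of all tested probe sets, so the division into falls and rises is that of the array as a whole. By brightest probe set, 5 genes fell and 5 rose. With spike-in scaling 13 probe sets were lower and 1 higher, and with median centring 10 were lower and 4 higher.

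**Figure D2:**
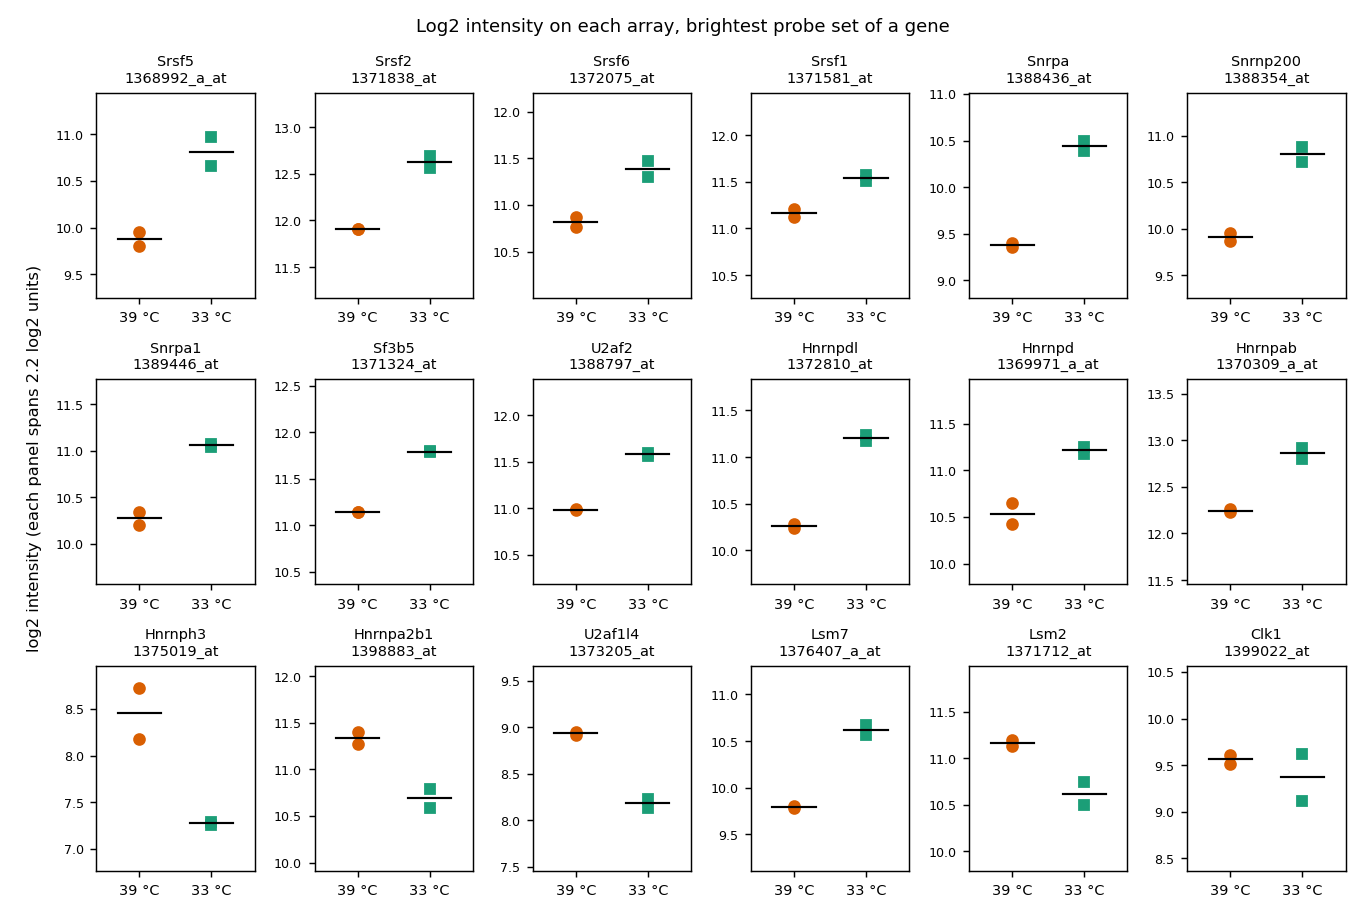
Log2 intensity (y axis, 2.2 log2 units in each panel) on each array at 39 °C (orange circles) and 33 °C (green squares) for the brightest probe set of 18 genes, with bars at the means of 2 arrays. The genes were largely chosen among called genes whose arrays at the 2 temperatures did not overlap. The lack of overlap in every panel but that of Clk1 therefore follows from the choice. Of all tested probe sets, 74.4% showed no overlap.

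The hnRNP D family, related proteins with paired RNA-binding domains, fell together. Hnrnpdl read 10.28 and 10.24 at 39 °C, against 11.24 and 11.18 at 33 °C (-0.95 ± 0.10, limma adjusted p = 1.18e-05), 1.93-fold lower, and its second probe set was also lower (-0.59 ± 0.15). Hnrnpd, or AUF1, which binds AU-rich elements and promotes decay of many short-lived mRNAs, read 10.65 and 10.43 at 39 °C, against 11.25 and 11.18 at 33 °C (-0.68 ± 0.10, limma adjusted p = 0.000254). Hnrnpab read 12.23 and 12.26 at 39 °C, against 12.80 and 12.92 at 33 °C (-0.62 ± 0.08, limma adjusted p = 9.95e-05).

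All 3 genes of the D family, and all 4 of their probe sets, were called lower in each alternative in which they were tested. Hnrnpm (-0.50 ± 0.10) and Hnrnph1 (-0.45 ± 0.09), a binder of G-rich runs, fell as well. A dimmer probe set of Hnrnpa1 was the seventh hnRNP call on this side (-0.40 ± 0.14, limma adjusted p = 0.0366), and that call was lost under 5 alternatives, among them the deposited scale and leaving out permissive replicate 2 or nonpermissive replicate 1.

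The largest rise was that of Hnrnph3, a relative of Hnrnph1, with 8.18 and 8.72 at 39 °C, against 7.29 and 7.26 at 33 °C (1.18 ± 0.20, limma adjusted p = 0.000519), 2.26-fold higher. The arrays at 39 °C differed from each other by more than those at 33 °C, but both were above them. Hnrnpa2b1, of the A and B group that packages nascent transcripts, read 11.27 and 11.40 at 39 °C, against 10.58 and 10.79 at 33 °C (0.65 ± 0.10, limma adjusted p = 0.000351). Hnrnpc, whose protein binds uridine runs, read 11.91 and 11.81 at 39 °C, against 11.37 and 11.57 at 33 °C (0.39 ± 0.10, limma adjusted p = 0.00630).

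Rises of Hnrnpr (0.35 ± 0.11) and Hnrnpa0 (0.31 ± 0.10) were smaller. The rises of Hnrnpc, Hnrnpr and Hnrnpa0 were not called with median centring or spike-in scaling, and with spike-in scaling their changes were -0.11, -0.04 and -0.17. The call of Hnrnpc also needed nonpermissive replicate 1, that of Hnrnpr every array but permissive replicate 2, and that of Hnrnpa0 permissive replicate 1 and nonpermissive replicate 2. Without an intensity trend neither Hnrnpr nor Hnrnpa0 was called, and Hnrnpa0 was not called on the deposited scale or with no dim limit. The rises of Hnrnpa2b1 and of the single called probe sets of Hnrnpa3 and Hnrnpu were not called with spike-in scaling (0.23 for Hnrnpa2b1). Hnrnph3 was called higher in all 13 alternatives that tested this probe set. Hnrnpf (-0.08), Hnrnpl (0.11) and Hnrnpul1 (0.24) were not called.

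Promoters from RefSeq (build GRCr8), 250 bases before to 50 bases after the listed gene start, were matched by gene identifier for 66 of the 69 genes, taking the first start where several are listed. Motifs were searched on both strands: the E-box CACGTG bound by MYC with MAX, the CCAAT box, the ETS-type site CCGGAAG and the GC box GGGCGG. The promoters printed here are those of genes with large changes, with motif matches in capitals: Srsf5 and Snrpa as the largest falls of their classes by brightest probe set, Hnrnpd and Hnrnpdl as related genes that fell together, and U2af1l4 as a rise called under all alternatives.
Srsf5, chr6:106336506-106336805, + strand: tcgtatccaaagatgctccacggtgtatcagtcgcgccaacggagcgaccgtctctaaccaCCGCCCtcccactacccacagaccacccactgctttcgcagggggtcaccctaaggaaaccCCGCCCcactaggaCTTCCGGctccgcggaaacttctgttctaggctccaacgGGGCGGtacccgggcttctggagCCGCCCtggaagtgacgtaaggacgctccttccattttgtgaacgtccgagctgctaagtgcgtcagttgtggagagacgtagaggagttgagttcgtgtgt
Snrpa, chr1:91617993-91618292, - strand: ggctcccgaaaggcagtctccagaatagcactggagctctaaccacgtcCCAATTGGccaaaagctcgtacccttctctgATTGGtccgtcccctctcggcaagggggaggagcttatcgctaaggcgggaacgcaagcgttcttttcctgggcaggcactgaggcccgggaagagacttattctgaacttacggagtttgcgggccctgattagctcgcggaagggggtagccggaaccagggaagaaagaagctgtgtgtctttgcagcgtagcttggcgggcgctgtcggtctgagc
Hnrnpd, chr14:9919507-9919806, + strand: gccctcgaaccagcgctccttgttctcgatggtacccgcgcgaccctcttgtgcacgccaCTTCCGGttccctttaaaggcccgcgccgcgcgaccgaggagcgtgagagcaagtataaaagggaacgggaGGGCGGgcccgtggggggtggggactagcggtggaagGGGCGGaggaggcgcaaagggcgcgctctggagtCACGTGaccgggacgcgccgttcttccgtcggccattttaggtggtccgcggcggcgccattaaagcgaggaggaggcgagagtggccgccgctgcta
Hnrnpdl, chr14:9861466-9861765, + strand: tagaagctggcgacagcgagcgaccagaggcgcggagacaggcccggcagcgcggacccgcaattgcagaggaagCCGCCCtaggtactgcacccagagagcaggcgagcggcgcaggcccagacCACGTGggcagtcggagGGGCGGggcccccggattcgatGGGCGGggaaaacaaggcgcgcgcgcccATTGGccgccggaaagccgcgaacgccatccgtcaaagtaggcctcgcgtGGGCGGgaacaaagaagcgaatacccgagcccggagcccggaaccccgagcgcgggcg
U2af1l4, chr1:94943511-94943810, + strand: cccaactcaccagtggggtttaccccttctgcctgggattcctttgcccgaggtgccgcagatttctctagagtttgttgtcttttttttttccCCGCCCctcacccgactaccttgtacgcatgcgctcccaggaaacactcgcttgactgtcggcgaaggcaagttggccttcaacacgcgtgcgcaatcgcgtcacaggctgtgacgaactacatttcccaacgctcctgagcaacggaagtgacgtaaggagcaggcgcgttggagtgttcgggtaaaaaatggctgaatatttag

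Hnrnpd and Hnrnpdl lie next to each other on chromosome 14, with 0 protein-coding genes between them in the RefSeq table, and each promoter held 1 E-box, as the capitals show. Srsf5 held 1 ETS-type site and 4 GC boxes, U2af1l4 held 1 GC box, and Snrpa held 3 CCAAT matches, 2 of them overlapping on opposite strands. Over the splicing genes, 7 of 66 promoters held an E-box (10.6%), against 10.1% of 5958 promoters of tested genes and 6.65% of all 27457 promoters. The ETS-type site was in 27.3% of the 66, 20.4% of those of tested genes and 9.22% of all. The CCAAT box was in 47.0%, 38.7% and 37.7%, and the GC box in 63.6%, 67.3% and 34.9%, in the same order. Among the splicing genes with a promoter, the E-box was in 4 of 25 that fell, 0 of 8 that rose and 3 of 32 not called, and the ETS-type site in 7, 0 and 11 of these. The CCAAT box was in 10, 6 and 14 of these, and the GC box in 15, 6 and 21. A match in this window is a description of the sequence and no evidence of binding.

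The Clk kinases, which phosphorylate the arginine-serine domains of SR proteins in the nucleus, were called in neither direction (0 of 4; 0 had an unadjusted p under 0.05). Clk1 read 9.52 and 9.61 at 39 °C, against 9.12 and 9.62 at 33 °C, so the groups overlapped (0.19 ± 0.16, limma adjusted p = 0.336). Clk2 read 8.43 and 8.74 at 39 °C, against 8.70 and 8.76 at 33 °C (-0.14 ± 0.15, limma adjusted p = 0.449). Clk3 read 8.44 and 8.53 at 39 °C, against 8.74 and 8.46 at 33 °C (-0.12 ± 0.15, limma adjusted p = 0.543).

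Clk4 read 7.42 and 7.32 at 39 °C, against 7.41 and 7.31 at 33 °C (0.01 ± 0.20, limma adjusted p = 0.971). With these errors, a change the size of the smaller calls above, such as that of Hnrnpa0 (0.31), would not have been called for any Clk gene. The limit was widest for Clk4. Clk1 was called higher without permissive replicate 2 (0.44) and had a change of -0.06 without permissive replicate 1. With spike-in scaling Clk2 (-0.42) and Clk3 (-0.39) were called lower, close to the median of all probe sets under that scaling.

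Probe sets of one gene were compared directly, by testing the per-array difference between a gene's brightest probe set and each further one. This was done for all 1161 such pairs on the array, of which 16.1% were called, and 3 of the 18 pairs of splicing genes were called (16.7%). After quantile normalization, in 0 of the 18 were both probe sets called in opposite directions, against 34 of the 1161. The median size of the difference was 0.23 for the splicing pairs and 0.30 for all pairs. The share of splicing pairs that disagreed was thus close to that of the array as a whole.

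Srsf6 had the largest disagreement. Its brightest probe set changed by -0.57 and the other by -1.43, a difference of 0.86 ± 0.19 (SE, limma adjusted p = 0.00447), though both fell. For Hnrnpu, a nuclear matrix protein that binds RNA and chromatin, the brightest probe set read 11.87 and 11.95 at 39 °C, against 12.10 and 11.94 at 33 °C (-0.11, not called). A second probe set read 10.42 and 10.76 at 39 °C, against 9.75 and 10.11 at 33 °C, and was called higher (0.67 ± 0.14), and the difference was -0.78 ± 0.18 (SE, limma adjusted p = 0.00771). A further Hnrnpu probe set was at 0.08, not called. Whether Hnrnpu was called thus depended on the probe set, and the difference was not called without an intensity trend or without permissive replicate 1.

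Srsf1 differed by -0.53 ± 0.18 between a brightest probe set that fell and a second one, which read 9.07 and 8.98 at 39 °C, against 8.82 and 8.92 at 33 °C and was not called (0.15). This difference was just past the threshold (limma adjusted p = 0.0494) and was lost in 7 of 13 alternatives, among them each of the 4 that left out an array. Without permissive replicate 1, 0 of the 18 differences were called, and without an intensity trend 1 was, that of Srsf6. The ratio of the 3′ to the 5′ control probe sets was 1.38 and 1.26 at 39 °C and 1.18 and 1.33 at 33 °C for actin, and 1.12 and 1.01 at 39 °C and 1.17 and 1.14 at 33 °C for Gapdh. The part of RNA integrity in the disagreements was not tested, and where each probe set lies on its transcript was not analysed here.

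The other genes with several probe sets showed no called difference (limma adjusted p from 0.116 to 0.940). Both tested probe sets of Srsf2 and of Hnrnpdl fell, as did 2 of 3 of Prpf3. Of the 4 Hnrnpa3 probe sets 1 was called higher (0.51 ± 0.11) and the others lay between 0.10 and 0.19, and the 3 of Hnrnpa1 lay between -0.40 and 0.03. Both genes have many processed copies in mammalian genomes, so their probe sets may detect more than 1 locus, which was not tested. For Hnrnpa2b1 the second probe set was at 0.30 against 0.65, and for Sf3a1 the changes were -0.15 and -0.62, neither of them called.

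**Figure D3:**
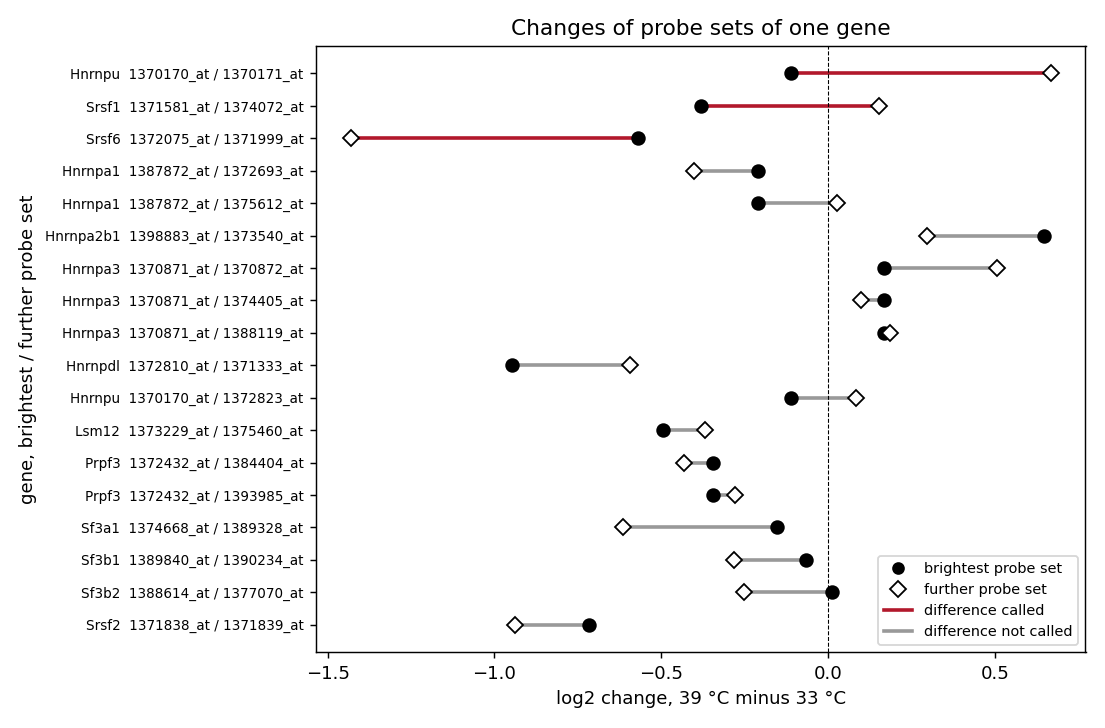
Log2 change at 39 °C minus 33 °C (x axis) of the brightest probe set (black circle) and a further probe set (open diamond) of each of 18 pairs (y axis). Red lines mark the 3 pairs, of Hnrnpu, Srsf1 and Srsf6, whose difference was called.

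Genes around this machinery were followed through lists of other splicing and mRNA maturation genes, each gene by its brightest probe set, against 26.0% lower and 23.0% higher of all tested genes. Of 16 SR protein kinases and SR-related proteins 6 fell and 3 rose (37.5% and 18.8%, median -0.09). The SR protein kinases moved in opposite directions: Srpk1 read 7.52 and 7.87 at 39 °C, against 8.99 and 8.85 at 33 °C (-1.22 ± 0.17, limma adjusted p = 0.000101), and Srpk2 read 10.12 and 9.87 at 39 °C, against 9.44 and 9.29 at 33 °C (0.63 ± 0.13, limma adjusted p = 0.00141). The Srpk2 call was lost with spike-in scaling (0.29). Luc7l, a U1-associated protein, was at -0.55 (not called without replicate 1 of either temperature) and Dyrk1a, a kinase of nuclear speckles, at 0.60 (not called with spike-in scaling or without nonpermissive replicate 1).

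In the list of snRNP assembly 7 of 12 fell and 1 rose (58.3% and 8.33%, median -0.37). Prmt5 and Wdr77, the enzyme and its partner in the complex that methylates Sm proteins, led the falls. Wdr77 read 9.64 and 9.50 at 39 °C, against 10.71 and 10.89 at 33 °C (-1.23 ± 0.11, limma adjusted p = 5.45e-06), and Prmt5 read 8.86 and 8.90 at 39 °C, against 9.88 and 10.06 at 33 °C (-1.09 ± 0.12, limma adjusted p = 2.27e-05). Gemin8, of the SMN complex that loads Sm rings, was the member that rose (0.42 ± 0.10), a call that was lost with spike-in scaling (0.05).

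Of 32 spliceosomal helicases, Prp19 complex members and step factors, 14 fell and 2 rose (43.8% and 6.25%, median -0.23). Ddx39b, the helicase UAP56 of early assembly and export, read 11.13 and 11.15 at 39 °C, against 12.14 and 11.97 at 33 °C (-0.91 ± 0.09, limma adjusted p = 1.22e-05). Sugp1, a partner of SF3b1, was at -0.98 ± 0.15. The rises were Ppih, a cyclophilin of the U4, U6 and U5 complex (0.87 ± 0.13), and Zranb2 (0.35 ± 0.11), whose call was lost in 5 alternatives.

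Of 17 genes of the exon junction complex, mRNA export and nonsense-mediated decay, 9 fell and 2 rose (52.9% and 11.8%, median -0.31), led by Smg5 (-0.81 ± 0.15) and Thoc1 (-0.67 ± 0.14) downwards and Thoc7 (0.73 ± 0.09) and Ncbp2 (0.45 ± 0.15) upwards. The calls of Thoc7 (0.25) and Ncbp2 (0.19) were lost with spike-in scaling, and Ncbp2 was not called either with permissive replicate 2 or any nonpermissive array left out, or with no dim limit. In the list of other splicing regulators 9 of 26 fell and 10 rose (34.6% and 38.5%, median 0.06), where all tested genes also divided into falls and rises. Mbnl1, a muscleblind protein that regulates exon choice during differentiation, read 11.99 and 12.04 at 39 °C, against 10.52 and 10.38 at 33 °C (1.57 ± 0.10, limma adjusted p = 2.90e-07), a larger change than that of any gene chosen by symbol here. Celf2 rose by 0.93 ± 0.16. Syncrip, or hnRNP Q, fell by 1.36 on the log2 scale, to 9.74 and 9.91 at 39 °C, against 11.06 and 11.30 at 33 °C (limma adjusted p = 3.19e-06), and Rbmx, or hnRNP G, was at -1.29 ± 0.15.

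With spike-in scaling, 11 of 16 SR-related genes were lower and 0 higher, and 9 of 12 and 0 in snRNP assembly. The counts were 26 of 32 and 1 for helicases and step factors, and 11 of 17 and 0 for exon junction and export. Of 26 other regulators 14 were lower and 4 higher, close to the 47.0% and 11.2% of all tested probe sets under this scaling. The lists count genes while these shares count probe sets, and no share by gene is given here for this scaling.

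**Figure D4:**
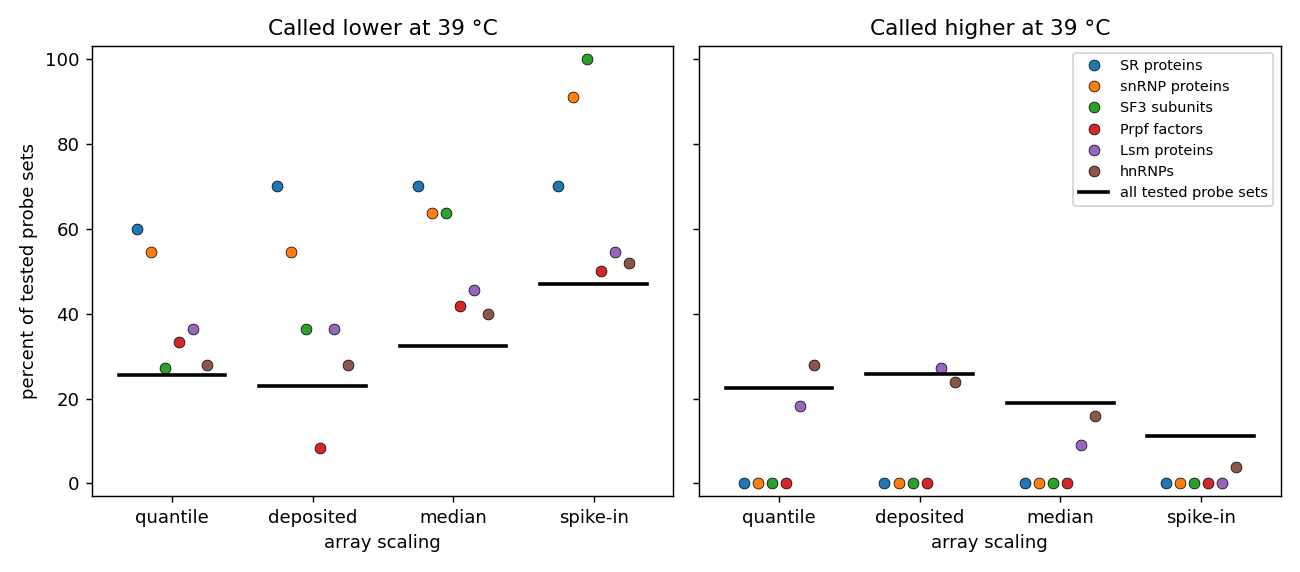
Percent of tested probe sets (y axis) called lower (left) or higher (right) at 39 °C in each class with 10 or more tested probe sets (coloured points) under the 4 array scalings (x axis), with black bars for all 8178 probe sets (8177 outside quantile normalization). SR and snRNP proteins lie above the bar on the left under each scaling, from 54.5% to 90.9%, and SR, snRNP, SF3 and Prpf probe sets are at 0 on the right under each.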

How the data were processed

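Each of the 4 samples was measured on its own Affymetrix array after biotin labelling of total RNA, per the labels' protocols. The files give 15923 probe sets with linear intensities, which the authors had scaled to a trimmed mean of 500 per array, as the values show (2% trimmed at each end). No source used here names the summarising software. The number of arrays limits the precision.

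Groups came from the titles. The genes, lists and tests were chosen with earlier results of these data known. Intensities were taken as log2(intensity + 16), which understates changes of dim genes. The medians of the arrays spanned 0.17 log2 units, over the limit of 0.1, so the 15866 non-control probe sets were quantile normalized. The 12783 with 1 symbol in GEO's platform annotation, checked by Entrez identifier against RefSeq (assembly GRCr8, 12748 matched, 0 symbols changed), were used; 312 with several symbols and 2771 with none listed were not. Those with a mean under the 40th percentile (log2 6.60, intensity 81.1) were left out as dim, which left 8178 probe sets of 7017 genes. limma 3.58.1 in R 4.3.3 (lmFit, eBayes with intensity trend, 2 residual degrees of freedom, median prior 9.63) compared 39 °C with 33 °C, two-sided; the same test on per-array differences compared probe sets of a gene, with the mean intensity of the pair as trend. Probe sets ending in _x_at were taken as a gene's brightest only where there was no other. Both tests were run on simulated data first. Values on every array are given for the 3 largest called falls and rises of each class by brightest probe set whose groups did not overlap, all Clk genes and genes with called probe set differences, and of other lists the 2 largest rises and falls are named; further genes were named after their values were seen. The 14 alternatives were 3 other scalings, 1 or 64 added, no dim limit or the 60th percentile, 1 probe set per gene, no trend, a replicate block, and each array left out. Python 3.11.15 and matplotlib 3.10.9 made the figures.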

Additional observations from a re-analysis of the deposited data

How the results depend on the processing

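Of the 31 splicing probe sets called lower, 24 were called lower in every alternative that tested them, and of the 10 called higher 2 were, those of Hnrnph3 and U2af1l4. With single arrays left out, 26 to 33 were lower, 7 to 12 higher and 0 to 2 probe set differences called, and 3055 to 3656 of all probe sets were called. The lone array of a group is then assumed to vary like the others. Among alternatives that kept every array, some counts differed more than 1.5-fold from those given above. These were 6 higher with arrays centred on their medians, and 56 lower and 2 higher with spike-in scaling. Without an intensity trend, 1 probe set difference was called. Higher calls made up 24.4% of calls for the splicing probe sets and 46.8% for all after quantile normalization, 25.0% and 52.8% on the deposited scale, 12.5% and 36.9% with median centring and 3.45% and 19.2% with spike-in scaling. With the replicate number as a block, 34 splicing probe sets were lower, 10 higher and 3 differences called, and all 41 calls were kept. The deviations of same-numbered arrays from their group means had a correlation of 0.00098. With so few arrays this cannot show whether same-numbered samples shared a culture or day. Signs of probe sets turned as follows. On the deposited scale they turned for Prpf39 (0.026), Prpf40b (0.059), Sf3b2 (-0.022), Snrpd2 (-0.091), and centred on the median for Hnrnpa1 (-0.023), Hnrnpa3 (-0.051, -0.037, -0.060), Hnrnpl (-0.13), Lsm14a (-0.044), Lsm5 (-0.073), Lsm8 (-0.034), Prpf6 (-0.028), Sf3b2 (-0.17), Sf3b3 (-0.085), Snrpb (-0.12), Snrpd2 (-0.24), Snrpe (-0.15), Srsf11 (-0.034). Scaled to spike-ins they turned for Clk1 (-0.13), Clk4 (-0.23), Hnrnpa0 (-0.17), Hnrnpa1 (-0.26), Hnrnpa3 (-0.28, -0.27, -0.29), Hnrnpc (-0.11), Hnrnpl (-0.36), Hnrnpr (-0.040), Hnrnpu (-0.16), Hnrnpul1 (-0.11), Lsm14a (-0.28), Lsm5 (-0.30), Lsm8 (-0.27), Prpf18 (-0.14), Prpf19 (-0.16), Prpf6 (-0.26), Sf3b2 (-0.40), Sf3b3 (-0.32), Snrnp27 (-0.16), Snrpb (-0.35), Snrpd2 (-0.47), Snrpe (-0.38), Srsf1 (-0.14), Srsf11 (-0.27), Zranb2 (-0.0017). With arrays left out, those that turned ranged as Clk1 (-0.058 to 0.44), Clk2 (-0.30 to 0.0077), Clk3 (-0.26 to 0.021), Clk4 (-0.039 to 0.060), Hnrnpa1 (-0.028 to 0.079), Hnrnpa2b1 (-0.0053 to 0.59), Hnrnpa3 (-0.013 to 0.22), Hnrnpu (-0.16 to 0.33), Lsm5 (-0.16 to 0.23), Prpf18 (-0.079 to 0.30), Prpf3 (-0.60 to 0.039), Prpf38b (-0.47 to 0.091), Prpf39 (-0.24 to 0.10), Prpf40b (-0.43 to 0.24), Sf3b1 (-0.13 to 0.0017), Sf3b2 (-0.12 to 0.13), Snrpd2 (-0.092 to 0.097), Srsf10 (-0.55 to 0.26), Srsf11 (-0.051 to 0.21). Of all these probe sets, only those of Hnrnpa0, Hnrnpc, Hnrnpr and Zranb2 had been called, all higher. For genes with several probe sets, such as Hnrnpa2b1, Hnrnpu, Prpf3 and Srsf1, the values are of probe sets that were not called. The cause was not tested. Signal over background limits the dim probe sets.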

Other observations

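Some related splicing regulators outside the chosen symbols, picked here after their values were seen, moved apart. The polypyrimidine tract binding protein Ptbp1, a repressor of many exons, read 12.16 and 12.20 at 39 °C, against 12.53 and 12.61 at 33 °C (log2 change -0.39 ± 0.08, limma adjusted p = 0.00236), while its relative Ptbp3 read 10.50 and 10.86 at 39 °C, against 9.73 and 9.92 at 33 °C (0.86 ± 0.13, limma adjusted p = 0.000231). Both calls held under all 14 alternatives. Celf1 had a change of -0.41 ± 0.12, not called without permissive replicate 2, without nonpermissive replicate 1 or without an intensity trend, against the rise of Celf2 given above. The muscleblind gene Mbnl2 rose like Mbnl1 (0.92 ± 0.13), and the poly(C)-binding proteins Pcbp1 (0.72 ± 0.10) and Pcbp2 (0.50 ± 0.08) were both higher, except with spike-in scaling (0.26 and 0.03, not called). The differences between the relatives were not tested.

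The measured core genes of the exon junction complex, also picked after their values were seen, fell by similar amounts. Eif4a3, its RNA-clamping helicase, read 11.11 and 11.26 at 39 °C, against 11.84 and 11.81 at 33 °C (-0.64 ± 0.09). Magoh was at -0.63 ± 0.15 and Rbm8a (Y14) at -0.61 ± 0.09. The Magoh call was lost without nonpermissive replicate 1 (-0.38). In the snRNP assembly list, Smn1, the SMN protein, was at -0.67 ± 0.11 and Strap, which binds it, at -0.74 ± 0.08. These were also picked after their values were seen. On the same list Ddx20 (-0.69) and Gemin7 (-0.42) fell, Gemin2 (0.10) and Gemin4 (-0.20) were not called, and Gemin8 rose.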
